A study of Arabidopsis thaliana with 32 samples.

Results

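SEN1, bZIP1 and ASN1 belong to the genes that plants switch on when sugar or light runs short, and they were followed here with 7 further genes of the same kind through roots of Arabidopsis thaliana grown in orbit and on the ground. The 10 genes are SEN1 (AT4G35770), bZIP1 (AT5G49450), bZIP53 (AT3G62420), ASN1 (AT3G47340), DIN10 (AT5G20250), BT2 (AT3G48360), AT2G25900, AT1G80440, DRM1 (AT1G28330) and TPS8 (AT1G70290). They were chosen by their listed fold changes and levels in these same tables together with their known answer to low energy, so their changes are given as a description and no test is built on them. Of the 10, 7 stand among the 5162 genes that at least 1 of the authors' 8 deposited tables lists as changed, while bZIP53, DIN10 and TPS8 stand in none.

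Messenger RNA was sequenced from roots dissected from light-grown seedlings on solid medium, preserved in RNAlater. The 32 libraries form 8 groups of 4. Spaceflight seedlings grew in the Veggie hardware of the International Space Station and were harvested at 4 or 8 days, in the wild-type accessions Col-0 and WS. Ground seedlings of the same accessions and ages grew in a chamber that followed the conditions of the station 48 h later. No group carries a transgene or a mutation. A replicate at 8 days held 2 to 3 roots, and one at 4 days held 5 to 8. The deposited tables set flight against ground within an age and accession, and 8 against 4 days within flight or ground. Each gives 1 pooled level per group in FPKM, fragments scaled for transcript length and for sequencing depth, so the value of a single library and its depth are unknown, and whether single libraries overlap between groups cannot be seen.

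When carbon runs low, the kinase SnRK1 is active and, with bZIP transcription factors of the C and S1 groups, switches on genes for the use of amino acids and stored sugars as fuel and damps growth. bZIP1 and bZIP53 are S1 factors that bind as dimers with C group partners. ASN1, also called DIN6, makes asparagine, a nitrogen-rich amino acid that stores nitrogen when carbon is scarce. SEN1, also called DIN1, and DIN10, a raffinose synthase family gene, were found as genes induced in darkened leaves. In roots the same genes are known to answer to sugar.

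The DNA just before the start of SEN1, bZIP1, AT1G80440 and AT2G25900 is shown because these 4 genes rose in flight at 4 days in Col-0 at loci no wider than the gene. The sequences run 5′ to 3′ on the strand of the gene, over 150 bases up to the start annotated by RefSeq in TAIR10.1, and capitals mark matches on either strand to the motif TTATCC, to the bZIP core ACGT or to the motif ACTCAT, of which only TTATCC occurs in these 4 stretches.
SEN1, chr4:16944728-16944877, plus strand: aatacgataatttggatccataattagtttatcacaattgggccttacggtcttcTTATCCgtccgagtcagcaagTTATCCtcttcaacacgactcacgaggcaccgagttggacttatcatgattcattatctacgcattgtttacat
bZIP1, chr5:20051679-20051828, plus strand: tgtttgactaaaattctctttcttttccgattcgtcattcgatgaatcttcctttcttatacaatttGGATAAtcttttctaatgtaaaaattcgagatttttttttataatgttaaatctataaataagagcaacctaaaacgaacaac
AT1G80440, chr1:30241302-30241451, plus strand: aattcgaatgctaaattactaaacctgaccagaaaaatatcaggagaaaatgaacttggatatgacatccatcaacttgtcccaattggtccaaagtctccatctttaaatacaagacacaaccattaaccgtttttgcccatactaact
AT2G25900, chr2:11041181-11041330, plus strand: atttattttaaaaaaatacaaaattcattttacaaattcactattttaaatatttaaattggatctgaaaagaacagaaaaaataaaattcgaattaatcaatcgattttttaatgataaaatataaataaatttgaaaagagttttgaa
TTATCC is known as a sugar-repressed element, ACGT is the core bound by many bZIP factors (CACGTG, the G-box, contains it), and ACTCAT is known from genes that S1 group factors switch on. In a window of 250 bases, TTATCC or its reverse complement stood before 4 of the 10 genes, against 12.5% of 27443 protein-coding genes. SEN1 held it at 95 and 74 bases before the start, bZIP1 at 83, ASN1 at 80 and BT2 at 8. In the same 250 bases ACGT stood before 4 of 10 genes, against 44.1% of all, CACGTG before 1 of 10, against 6.49%, and ACTCAT before 1 of 10, against 12.3%. The 250 bases of SEN1, ASN1 and DRM1 reach into a neighbouring gene. A window of 150 bases, taken after the counts in 250 bases were known, held TTATCC before 4 of 10 genes, against 7.73% of all, ACGT before 2, against 31.8%, CACGTG before 0, against 4.78%, and ACTCAT before 0, against 7.51%. These matches are letters in a window and say nothing of binding in these roots.

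At 4 days in Col-0, 5 of the 10 genes rose in flight and 0 fell. Of all loci tested in that comparison, 7.21% were called at the authors' q-value of 0.05 or less while 3.1% were called higher and 4.11% lower, but the same comparison took part in choosing the genes, so nothing is read from the excess. The other 5 genes, bZIP53, ASN1, DIN10, DRM1 and TPS8, were not listed, which does not show that they were unchanged. Fold changes below are log2 ratios, flight over ground or 8 over 4 days, and ± gives the standard error that follows from the test statistic in the table. The authors' p-values and q-values do not follow from that error by a normal law, so a called gene can have an interval that includes 0.

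**Figure D1:**
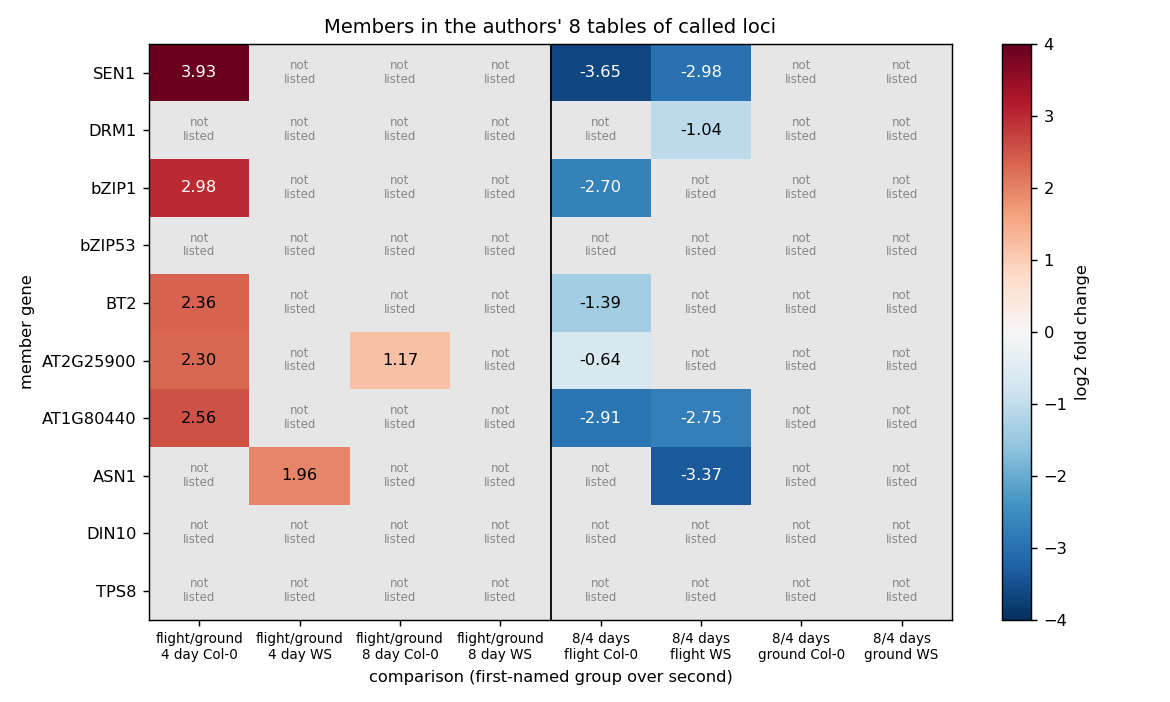
Log2 fold change of the 10 genes (rows) in the 8 deposited comparisons (columns), flight over ground or 8 over 4 days, with grey cells where a table does not list the gene. The 4 day Col-0 flight column holds 5 increases and the 2 columns for age in flight hold 5 and 4 decreases.

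SEN1 led the increases. In the authors' deposited table it stood at 18.2 FPKM in 4 day flight roots and at 1.19 FPKM in 4 day ground roots of Col-0. That is a difference of 3.93 ± 0.88 (95% interval 2.22 to 5.65, q = 0.00185), or 15.3-fold, in the authors' deposited table. SEN1 was the first of 566 single-gene loci called higher with a finite fold change. The locus is given in TAIR10 as chr4:16944941-16946192. Loci called higher whose fold change is not finite were left out of this ranking.

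The transcription factor bZIP1 took place 4 of the 566. Its level in the authors' deposited table was 31.6 FPKM in flight and 4.00 FPKM on the ground, a difference of 2.98 ± 0.55 (95% interval 1.91 to 4.06, q = 0.00185). The locus, chr5:20051829-20052735, coincides with the annotated gene of 907 nt. bZIP53, which forms dimers with the same C group partners, was listed in no table.

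The other 3 increases were in regulatory genes. AT1G80440, also named KMD1 or KFB20, encodes a Kelch-repeat F-box protein known to target type-B response regulators of cytokinin signalling for breakdown. In the authors' deposited table it stood at 10.8 FPKM in flight and 1.83 FPKM on the ground, 2.56 ± 0.60 (q = 0.00185), at chr1:30241607-30243071. AT2G25900, also named ATCTH or AtTZF1, encodes a tandem CCCH zinc finger protein. Its levels in the authors' deposited table were 19.4 FPKM in flight and 3.93 FPKM on the ground, 2.30 ± 0.47 (q = 0.00185), at chr2:11041331-11043209. BT2, a BTB and TAZ domain protein known to answer to sugar and nitrogen, had the highest level of the 5. The authors' deposited table gave it 77.0 FPKM in flight and 15.1 FPKM on the ground, 2.36 ± 0.78 (95% interval 0.82 to 3.89, q = 0.00185). Its locus, chr3:17908192-17943784, covers 35593 nt, whereas the annotated gene covers 2972 nt, and 10 other annotated genes lie within it, so the BT2 value may hold reads of other genes; their part was not tested. The 5 genes took places 1, 4, 6, 9 and 10 of the 566 single-gene loci called higher with a finite fold change.

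**Figure D2:**
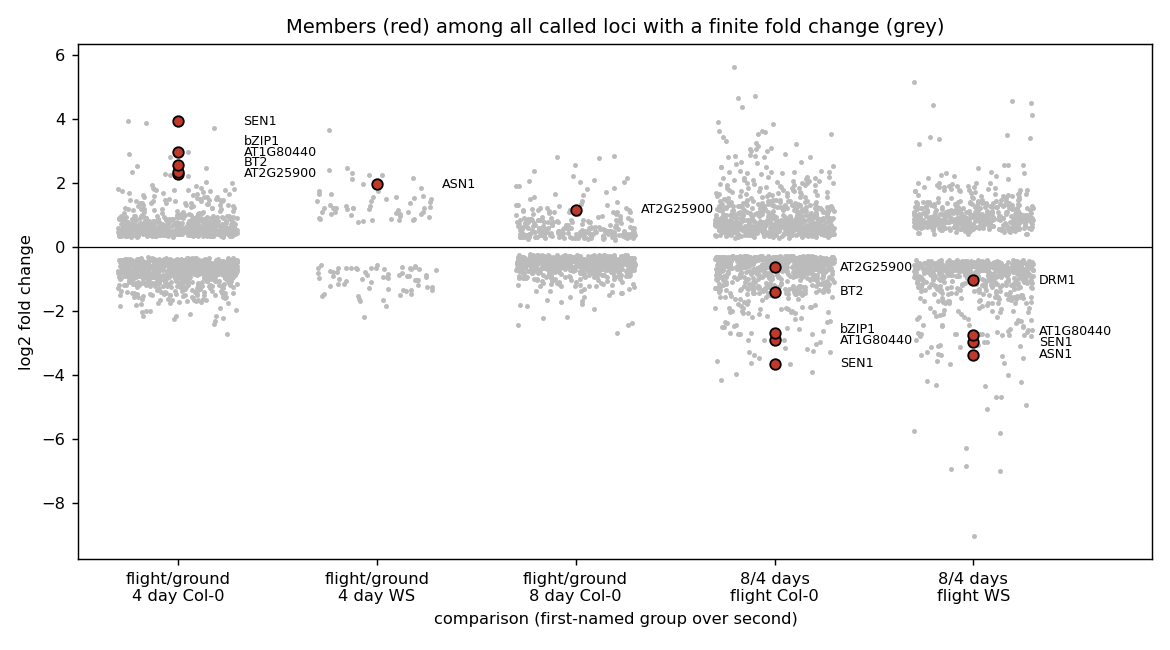
Log2 fold change of all called loci with a finite value (grey, spread sideways for sight) and of the listed members (red), in the 5 comparisons that list a member. At 4 days in Col-0 the 5 members lie between 2.30 and 3.93 among the larger increases. With age in flight the listed members lie between -0.64 and -3.65 in Col-0 and between -1.04 and -3.37 in WS. The members were chosen by these changes, so their places are a description only.

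In 4 day WS roots ASN1 rose in flight. It was the 1 gene of 10 called, where 0.715% of all loci tested were called, 0.352% higher and 0.363% lower. In the authors' deposited table ASN1 stood at 8.21 FPKM in 4 day flight roots and 2.1 FPKM in 4 day ground roots of WS, 1.96 ± 0.69 (95% interval 0.62 to 3.31, q = 0.0113). It took place 9 of the 57 single-gene loci called higher with a finite fold change, and it was not listed in any Col-0 table. SEN1, bZIP1, BT2, AT2G25900 and AT1G80440 were not listed for 4 day WS, and since an unlisted gene has no value, their flight change could not be compared between accessions.

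At 8 days 1 of the 10 genes was called in Col-0, where 4.05% of loci were called, 1.26% higher and 2.8% lower. AT2G25900 stood in the authors' deposited table at 13.2 FPKM in 8 day flight roots and 5.89 FPKM in 8 day ground roots, 1.17 ± 0.36 (95% interval 0.47 to 1.86, q = 0.00263). Its flight change at 8 days and at 4 days share no library; that at 4 days was larger by 1.13 ± 0.59, with a 95% interval of -0.03 to 2.30 that includes no difference. In 8 day WS roots 0 of 10 genes were called, against 5.11% of all loci, 2.36% higher and 2.75% lower. By the authors' Cuffdiff, the only tool whose output was deposited, unlisted genes carry no unadjusted p, so none can be counted.

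The age comparisons within flight held the same 5 Col-0 genes, now lower at 8 days. In flight Col-0 roots 0 of 10 rose and 5 fell with age, where 6.78% of loci were called, 3.33% higher and 3.45% lower. The flight and age tables share the 4 day flight libraries, so the decreases with age are not independent of the increases in flight. SEN1 stood in the authors' deposited table at 1.51 FPKM at 8 days and 18.9 FPKM at 4 days, -3.65 ± 0.78 (q = 0.00174). It was the third of 649 single-gene loci called lower with a finite fold change. bZIP1 stood in the authors' deposited table at 5.04 FPKM at 8 days and 32.8 FPKM at 4 days, -2.70 ± 0.47 (q = 0.00174). For these 2 genes the level at 8 days in flight was near that of 4 day ground roots.

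The 3 regulatory genes fell by unequal amounts. AT1G80440 stood in the authors' deposited table at 1.49 FPKM at 8 days and 11.2 FPKM at 4 days, -2.91 ± 0.60 (q = 0.00174). BT2 stood at 30.4 FPKM at 8 days and 79.8 FPKM at 4 days in the authors' deposited table, -1.39 ± 0.58 (q = 0.00174). AT2G25900 changed least, at 12.9 FPKM at 8 days and 20.1 FPKM at 4 days in the authors' deposited table, -0.64 ± 0.31 (q = 0.00174), and it was the gene still called higher in flight at 8 days. Set side by side through the shared 4 day flight group, levels in 8 day flight roots over 4 day ground roots of Col-0 came to log2 ratios of 0.28 for SEN1, 0.28 for bZIP1, -0.35 for AT1G80440, 0.96 for BT2 and 1.66 for AT2G25900, from the authors' deposited tables and with no error. For ASN1 in WS the same ratio was -1.41, also with no error. It rests on 0.815 FPKM in 8 day flight roots and 2.1 FPKM in 4 day ground roots in the authors' deposited tables. Both levels are low, so no difference of ASN1 between these groups is read from the ratio. The tables were normalised separately, and the level of a shared group differed between them by a median log2 ratio of -0.13 to 0.12.

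In flight WS roots 0 of 10 genes rose and 4 fell with age, where 6.08% of loci were called, 2.65% higher and 3.42% lower. SEN1 stood in the authors' deposited table at 1.12 FPKM at 8 days and 8.86 FPKM at 4 days, -2.98 ± 1.23 (95% interval -5.40 to -0.56, q = 0.00218). ASN1 stood at 0.815 FPKM at 8 days and 8.42 FPKM at 4 days in the authors' deposited table, -3.37 ± 0.86 (q = 0.00218). AT1G80440 stood at 1.07 FPKM at 8 days and 7.20 FPKM at 4 days in the authors' deposited table, -2.75 ± 0.89 (q = 0.00218). DRM1, a gene of the dormancy-associated family that marks resting buds, had the highest FPKM of the 4, at 53.6 FPKM at 8 days and 110 FPKM at 4 days in the authors' deposited table, -1.04 ± 0.56 (q = 0.0202). Its 95% interval of -2.13 to 0.05 includes 0, and its locus spans 23067 nt. SEN1 and AT1G80440 were called in flight in both accessions, which share no library; the age change in Col-0 minus that in WS was -0.67 ± 1.46 for SEN1 (95% interval -3.53 to 2.19) and -0.16 ± 1.07 for AT1G80440 (95% interval -2.27 to 1.95), so differences of several-fold in either direction lie within the intervals.

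**Figure D3:**
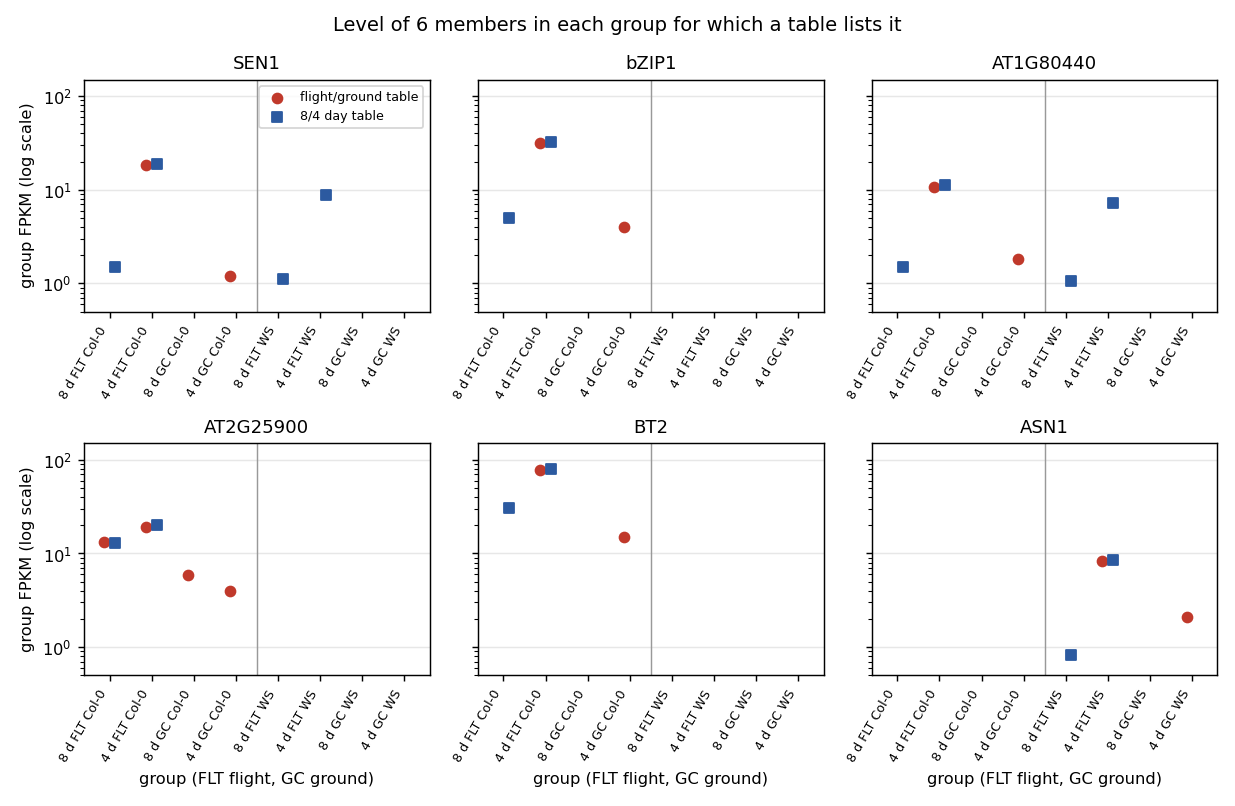
Group level in FPKM, on a log axis, of 6 members in each of the 8 groups, from flight/ground tables (circles) and 8/4 day tables (squares), with no point where no table lists the gene. In each of the 6 panels the highest points belong to 4 day flight roots.

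On the ground 0 of 10 genes were called between 8 and 4 days in either accession. In Col-0 11.2% of all loci were called there, 5.69% higher and 5.54% lower. In WS 6.13% were called, 2.85% higher and 3.27% lower. For 10 genes a count of 0 is near these shares, and unlisted genes have no value, so no lack of change is read from it. Over the 8 tables the members made 16 entries, and 15 of these have 4 day flight roots on the higher side. The exception is AT2G25900 in 8 day flight Col-0 roots. Of all called loci, 4 day flight roots were higher for 608 of 1414 in 4 day Col-0 flight and 63 of 128 in 4 day WS flight. With age in flight they were higher for 691 of 1357 in Col-0 and 606 of 1075 in WS. The 10 genes were chosen by these fold changes, and the flight and age comparisons share the 4 day flight libraries. The entries are therefore not independent, and nothing is read from their count. Of the 16 entries, 15 carry the smallest p of the tables, 5e-05, which is a limit of the authors' method.

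Levels of green tissue markers moved in some of the same comparisons. Of 18 markers, 0 were higher and 2 lower in 4 day Col-0 flight roots, and the listed ones summed to 207 FPKM in flight and 267 FPKM on the ground in the authors' deposited table. In 4 day WS, beside the ASN1 increase, 4 were higher and 0 lower, summing to 474 FPKM in flight and 221 FPKM on the ground in the authors' deposited table. All 4 are genes for the small subunit of Rubisco, of which RBCS1B, RBCS2B and RBCS3B are near-identical copies whose reads may be shared. In 8 day Col-0, beside AT2G25900, 0 were higher and 10 lower, at sums of 441 FPKM in flight and 761 FPKM on the ground in the authors' deposited table. With age, 6 of 18 were lower in flight Col-0, at 142 FPKM at 8 days and 277 FPKM at 4 days in the authors' deposited table. In flight WS 6 of 18 were lower with age, at 127 FPKM at 8 days and 538 FPKM at 4 days in the authors' deposited table. Markers were also lower with age on the ground, where no member was called. In ground Col-0 3 of 18 were lower, at 8.99 FPKM at 8 days and 57.4 FPKM at 4 days in the authors' deposited table. In ground WS 4 of 18 were lower, at 98.6 FPKM at 8 days and 240 FPKM at 4 days in the authors' deposited table. Each sum covers only the markers listed in that comparison, so sums cannot be set against each other between comparisons. Rubisco genes are also set by light and sugar, and the part of green tissue in the results for SEN1, ASN1 and the others was not tested. Fewer cells of a type and less RNA per cell cannot be told apart in such bulk samples. Of 11 root markers, 0 were listed in the 4 day flight tables, where 7.21% of all loci were called in Col-0 and 0.715% in WS. For 11 genes a count of 0 is near these shares, so no lack of change is read from it. Where listed, the root endodermis regulator SCR was present, for example at 6.35 FPKM at 8 days and 13.6 FPKM at 4 days in flight WS in the authors' deposited table. With age in flight 0 were higher and 2 lower in each accession, among them the nitrate transporter gene NRT2.1, at -3.17 ± 1.01 in Col-0 and -2.04 ± 0.76 in WS in the authors' deposited tables. On the ground 0 of the 11 were higher with age, while 5 were lower in Col-0 and 3 in WS. Of all loci, 3.45% were lower with age in flight Col-0, 3.42% in flight WS, 5.54% in ground Col-0 and 3.27% in ground WS. At 8 days 1 root marker was higher in flight in each accession, against 1.26% of all loci in Col-0 and 2.36% in WS. It was SCR in Col-0 and PHO1, in a locus of 2 genes, in WS.

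The direction of calls also moved with transcript length. Among genes called at 4 days in Col-0, increases made up 82.1% of the 123 with transcripts under 800 nt, against 39.9% of the 1045 of 800 to under 2500 nt and 31.6% of the 158 2500 nt or more. The 5 members called there all belong to the middle class. DIN10 and TPS8, not listed in any comparison, have transcripts of 3011 and 3349 nt. In 8 day flight the order of the outer classes was the reverse. Increases made up 17.2% under 800 nt and 53.0% at 2500 nt or more in Col-0, and 17.6% and 92.1% in WS. The part of transcript length in the results for the members was not tested.

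Other genes of the pathway were called in both directions. Of 86 other genes in 12 lists (SnRK1 subunits, bZIP partners, dark-induced genes, amino acid and sugar use, autophagy and the relatives of the members), 3 were higher and 6 lower in 4 day Col-0 flight roots, 10.5% of the 86 against 7.21% of all loci tested, with a median of -0.47 against -0.46 for all called loci. The 3 increases were relatives or partners of members. BT1, a relative of BT2, stood in the authors' deposited table at 29.6 FPKM in flight and 12.3 FPKM on the ground, 1.26 ± 0.34 (q = 0.00185). The C group factor bZIP63, a partner of bZIP1, stood at 22.0 FPKM in flight and 13.2 FPKM on the ground in the authors' deposited table, 0.74 ± 0.37 (q = 0.00185). KMD2, of the same F-box family as AT1G80440, stood at 27.0 FPKM in flight and 19.0 FPKM on the ground in the authors' deposited table, 0.51 ± 0.31 (q = 0.0217).

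Among the 6 decreases were genes of raffinose synthesis, sugar transport and glutamine synthesis. The raffinose synthase gene RS5 changed by -0.89 ± 0.30 in the authors' deposited table. SWEET17 and SWEET16, sugar carriers of the vacuole membrane, changed by -0.74 ± 0.26 and -0.51 ± 0.34 in the authors' deposited table. The glutamine synthetase genes GLN1;1 and GLN2 changed by -0.47 ± 0.32 and -0.37 ± 0.26 in the authors' deposited table. SWEET17 was lower in flight in all 4 flight tables. Of 14 genes of amino acid catabolism, 7 synthases of trehalose phosphate besides TPS8 and 4 relatives of AT2G25900, 0 were listed in any flight table. Of all loci tested in flight against ground, 7.21% were called in 4 day Col-0 and 0.715% in 4 day WS. At 8 days 4.05% were called in Col-0 and 5.11% in WS. Unlisted genes have no value, so no lack of change is read from the count.

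**Figure D4:**
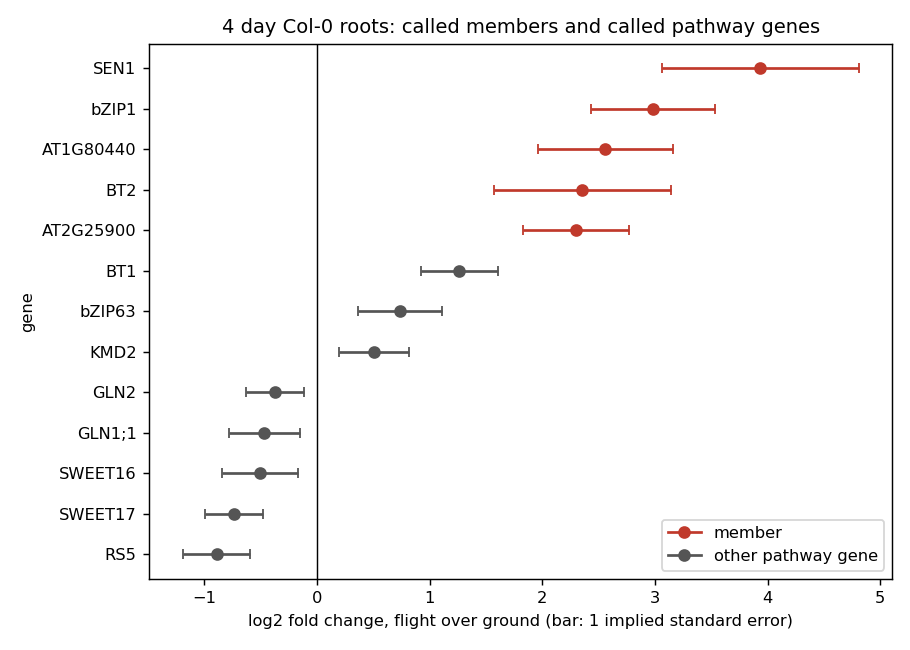
Log2 change, flight over ground, at 4 days in Col-0 for the 5 members (red) and 8 of the 9 pathway genes called there (grey), with bars of 1 implied standard error. The members lie from 2.30 to 3.93, and the pathway genes shown from -0.89 to 1.26. The members were chosen by their changes in these same data, so nothing is read from the gap.

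In 4 day WS flight roots 0 of 86 were higher and 2 lower, 2.33% against 0.715% of all loci. They were ATG8H, an autophagy gene in a locus of 2 genes, at -0.93 ± 0.37 and SWEET17 at -0.66 ± 0.37 in the authors' deposited table. In 8 day Col-0 1 was higher and 3 lower, 4.65% against 4.05% of all loci. The increase was AT3G15450, at 145 FPKM in flight and 68.5 FPKM on the ground in the authors' deposited table, 1.08 ± 0.51 (q = 0.00263). The decreases were RS5 at -0.41 ± 0.22, the sucrose synthase gene SUS1 at -0.49 ± 0.26 and SWEET17 at -0.32 ± 0.18 in the authors' deposited table. In 8 day WS 2 were higher and 5 lower, 8.14% against 5.11% of all loci. The increases were the S1 factor bZIP44 at 0.99 ± 0.44 and the SnRK1 subunit gene AKINBETA1 at 0.64 ± 0.39 in the authors' deposited table. The decreases were the autophagy genes ATG8G at -0.62 ± 0.30 and ATG8C at -0.38 ± 0.21, BT4 at -0.54 ± 0.34, SWEET16 at -0.60 ± 0.33 and SWEET17 at -0.76 ± 0.21 in the authors' deposited table.

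With age, pathway genes were called on the ground as well as in flight. In flight, 1 was higher and 7 lower in Col-0, 9.30% against 6.78% of all loci, and 2 were higher and 6 lower in WS, 9.30% against 6.08%. On the ground, 4 were higher and 10 lower in Col-0, 16.3% against 11.2% of all loci, and 1 was higher and 8 lower in WS, 10.5% against 6.13%. The hexose carrier gene STP13 was lower at 8 days in all 4 age tables, at -0.93 ± 0.33 and -1.65 ± 0.47 in flight Col-0 and WS and at -0.99 ± 0.33 and -0.93 ± 0.47 in ground Col-0 and WS in the authors' deposited tables. KMD2 was lower with age in Col-0 both in flight, at -0.82 ± 0.28, and on the ground, at -0.43 ± 0.31, in the authors' deposited tables. BT1 changed with age by -0.53 ± 0.28 in flight Col-0, by 1.3 ± 0.69 in flight WS and by 0.50 ± 0.33 in ground Col-0 in the authors' deposited tables. Also listed with age in flight Col-0 were SWEET17 at 0.54 ± 0.22, the glutamine synthetase gene GLN1;2 at -0.79 ± 0.34, TPS10 at -0.67 ± 0.34, AKINBETA1 at -0.42 ± 0.28 and ATG8I at -0.32 ± 0.20 in the authors' deposited table. In flight WS they were ATG8H at 0.74 ± 0.31, the raffinose synthase family gene RS4 at -1.69 ± 0.78, TZF5, of the zinc finger family of AT2G25900, at -1.12 ± 0.60, TPS9 at -0.86 ± 0.54, TPS5 at -0.71 ± 0.32 and the SnRK1 subunit gene SNF4 at -0.67 ± 0.43 in the authors' deposited table.

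In ground Col-0 roots the increases with age besides BT1 were SUS6 at 0.77 ± 0.47, bZIP63 at 0.60 ± 0.34 and the glutamate dehydrogenase gene GDH1 at 0.49 ± 0.31 in the authors' deposited table. All 4 glutamine synthetase genes listed there were lower, GLN1;2 at -0.89 ± 0.31, GLN2 at -0.73 ± 0.23, GLN1;1 at -0.59 ± 0.31 and GLN1;3 at -0.57 ± 0.35 in the authors' deposited table. Further decreases there were SWEET11 at -1.33 ± 0.47, SWEET16 at -0.83 ± 0.32 and SNF4 at -0.59 ± 0.27 in the authors' deposited table. In ground WS roots ATG8G was higher with age, at 0.86 ± 0.44, while RS4 at -1.63 ± 0.86, TZF5 at -1.22 ± 0.70, AKINBETA1 at -0.99 ± 0.47, TPS9 at -0.92 ± 0.51 and TPS5 at -0.57 ± 0.31 were lower in the authors' deposited table. TZF4 was listed at 0 FPKM at 8 days and 13.01 FPKM at 4 days in ground WS in the authors' deposited table. TPS9 and ATG8H each share a locus with another gene in WS. DRM2, the relative of DRM1, was also called in ground WS, at 46.2 FPKM at 8 days and 204 FPKM at 4 days in the authors' deposited table, -2.15 ± 1.06 (q = 0.00526).

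SEN1 was called in 3 tables, and 86 other single-gene loci were called in at least the same 3, each reaching 5 FPKM in the group where it was higher. The nearest to it, by the root mean square difference of log2 change over the 3 tables, was AT1G80440 at 0.91. AT1G80440 is itself a member, chosen by its changes in these same tables, so its nearness is a description only. The Col-0 changes in flight and with age also share the 4 day flight libraries. CCL (AT3G26740) followed at 1.70, with changes of 1.90 ± 0.66 in 4 day Col-0 flight, -2.05 ± 0.62 with age in flight Col-0 and -1.56 ± 0.86 with age in flight WS in the authors' deposited tables. GLYI7 (AT1G80160), of the glyoxalase family, came next at 1.81, with changes of 1.85 ± 0.67, -1.30 ± 0.55 and -2.96 ± 0.93 in the same order of the authors' deposited tables. GLYI7 was also higher in 4 day WS flight roots, at 14.2 FPKM in flight and 2.94 FPKM on the ground in the authors' deposited table, a log2 difference of 2.27. bZIP1 and ASN1 were called in 2 tables each, too few for this measure.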

How the data were processed

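Per the submitters' processing notes, the build was TAIR10 and the tools were STAR 2.5.1b, Trimmomatic 0.36, FastQC 0.11.2, Cufflinks, Cuffdiff and Picard. Their settings are not given. Full-length cDNA was made from 10 ng of RNA and amplified over 8 PCR cycles, per the labels' protocols, and does not mark strand. The deposited FPKM values are the authors' group levels. The deposited log2 fold changes are the authors' ratios of them, turned here to 8 over 4 days. The deposited test statistic is the authors' score per locus. The deposited p-value and q-value are the authors'. The tables list called loci only, with 0 columns per sample.

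The standard error is the log2 change divided by the test statistic, and 95% intervals use 1.96 of it. How many loci each table tested was worked out from p, q and rank, and checked on simulated data. Col-0 positions matched RefSeq TAIR10.1 genes for 5438 of 5438 single-gene loci. WS positions matched for only 151 of 2932, so most do not lie at TAIR10.1 coordinates, and they are not printed. Whether WS levels rest on the same reference as Col-0 levels cannot be told. All members were named, then up to 4 called genes per pathway list and table by size, with marker lists given mainly as counts and sums, and the 3 loci nearest SEN1. The members and lists were chosen with earlier results of these data known. AT3G15450 is given by its identifier. The values of 1 pathway gene that this rule names are not reported here, though the counts include it. Loci spanning under 10000 nt and the 150-base sequence window were added as alternatives after results had been seen. Python 3.11.15 and pandas 2.3.3 were used.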

Additional observations from a re-analysis of the deposited data

How the results depend on the processing

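No paired analysis was possible because the tables hold 1 pooled value per group, and for the same reason no replicate could be left out. Depth is unknown. With a q-value of 0.01 or less, members called in 4 day WS flight came to 0, against 1 (ASN1). The smallest q-value in that comparison was 0.0113, so no locus there could pass. In the other comparisons the count stayed within 1.5 times. Loci spanning under 10000 nt, a limit set after the data were seen, left 4 of 5 members called in 4 day Col-0 flight, 4 of 5 with age in flight Col-0 and 3 of 4 with age in flight WS. No alternative reversed a member's change, but most could not. Stricter limits only drop entries, and a pseudocount keeps the sign of a ratio. The medians subtracted were negative, so subtraction could only enlarge the increases in flight. It could have reversed a decrease with age in flight and did not. With a pseudocount of 1 FPKM 14 of 16 changes moved by less than 1 standard error; AT1G80440 with age in flight Col-0 came to -2.29 and ASN1 with age in flight WS to -2.38. After subtraction of the median of called loci, 15 of 16 did so and AT2G25900 in 8 day Col-0 flight came to 1.58. Of the 15, DRM1 with age in flight WS came to -0.54, against -1.04, and AT2G25900 with age in flight Col-0 to -0.35, against -0.64. Flight changes could not be rebuilt from the age tables, because 0 members are listed in both.

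Pathway counts fell under stricter limits, as fewer genes pass by construction. With a q-value of 0.01 or less, called genes came to 4, against 9, in 4 day Col-0 flight and to 0, against 2, in 4 day WS. In the latter no q-value was below 0.0113, so none could pass. Called genes came to 2, against 4, in 8 day Col-0 and to 3, against 7, in 8 day WS. With age they came to 4, against 8, in flight WS, to 9, against 14, in ground Col-0 and to 4, against 9, in ground WS. With a log2 change of 1 or more they came, in the same order of flight tables, to 1, 0, 1 and 0, and with age to 0 in flight Col-0, 4 in flight WS, 1 in ground Col-0 and 4 in ground WS. Loci of 1 gene left 1 in 4 day WS. Transcripts of 800 to under 2500 nt left 1 in 4 day WS, 2 in 8 day Col-0, 3 with age in flight WS and 5 in ground WS.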
